A study of Mus musculus and Homo sapiens with 8 samples.

Results

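The 39 genes described here belong to the amino acid and peptide transporter families Slc1a, Slc3a, Slc6a, Slc7a, Slc15a, Slc36a, Slc38a and Slc43a. They were chosen by gene symbol alone, as every listed gene whose symbol starts with one of these family names followed by a digit, and they are 39 of the 13359 distinct genes in the deposited table. The RefSeq annotation of GRCm38.p6 holds 72 mouse genes with such symbols, and the other 33 were not analysed here. The table lists genes at a mean of about 1 FPKM or more in at least 1 group, so the members are the expressed ones. One of them, Slc7a6os, carries the name only because it lies on the strand opposite Slc7a6, and it is not itself a transporter.

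RNA-seq was made from small intestinal crypts of untreated C57BL/6 mice aged 2 months, in 2 groups of 2 libraries. The first group has the genotype APCmin+; Zmynd8IEC-/-, in which the Apc Min allele is combined with loss of Zmynd8 in the intestinal epithelial cells. The other group, called Apc Min below, has the genotype APCmin+ alone. Both groups therefore carry the Apc Min mutation, and no mice without it were analysed here. Each library pooled RNA from 3 mice in equal mass, and what drives the epithelial deletion was not given in the sources used here. ZMYND8 is a chromatin reader, and the title of the study ties it to the mevalonate pathway in intestinal cancer.

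Zmynd8 RNA, which checks the labels, had 7.30 and 7.65 FPKM in the libraries labelled knockout, against 6.94 and 4.73 FPKM in Apc Min. FPKM are reads scaled by the gene's length and the library's total. Zmynd8 RNA was thus not lower in the libraries labelled knockout, and its log2 fold change was 0.33 (95% interval -0.13 to 0.79, limma adjusted p = 0.293). Which exons the deletion removes was not given in the sources used here, so reads from the rest of the gene may not report it. Every direction below rests on the labels. The reads on listed genes numbered 45304190 and 46779799 in the libraries labelled knockout and 43457250 and 47500045 in Apc Min.

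Dietary protein reaches the small intestinal epithelium as free amino acids and as short peptides. Carriers in the apical, brush border membrane take them up with sodium or protons, or by exchange, and peptidases in the cell and on its surface split the peptides. Exchangers and facilitated carriers in the basolateral membrane pass the amino acids on to the blood, and several of them are pairs of a heavy subunit (Slc3a1 or Slc3a2) with a light subunit of the Slc7a family. Dividing cells rely on a partly different set of carriers, and some of those genes are targets of ATF4, the transcription factor of the amino acid response.

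Most of the transporter RNA came from few genes. The members ranged from 0.792 to 294.66 FPKM in their mean over the 4 libraries, with a median of 9.61 FPKM against 6.85 FPKM over all listed genes. The 4 highest, Slc15a1, Slc6a8, Slc6a19 and Slc3a1, held 54.1% of the members' summed mean level, and the 10 highest held 81.7%. The summed level of the 39 members was 2090 and 2292 FPKM in the libraries labelled knockout, against 1600 and 1684 FPKM in Apc Min. Both libraries labelled knockout were above both Apc Min libraries.

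The promoter windows of 5 members are shown to give the sequence context of the genes the results turn on. They are the most abundant member (Slc15a1), the member that passed the test (Slc6a4), and the 3 members with a match to a motif of an intestinal factor (Slc3a1) or of the amino acid response (Slc1a4 and Slc7a7). Each window runs from 250 bases before to 50 bases after a RefSeq start on GRCm38.p6, in the direction of the gene. That start can differ from the gene's start in the deposited table, whose start and end both equalled RefSeq's for 16 of the 39 members. Slc15a1 lies at chr14:121505205-121505504 on the minus strand, Slc6a4 at chr11:76998347-76998646 on the plus strand, Slc3a1 at chr17:85028097-85028396 on the plus strand, Slc1a4 at chr11:20332664-20332963 on the minus strand and Slc7a7, by the one of its windows with most matches, at chr14:54417895-54418194 on the minus strand. Capitals mark matches to the motifs.
Slc15a1: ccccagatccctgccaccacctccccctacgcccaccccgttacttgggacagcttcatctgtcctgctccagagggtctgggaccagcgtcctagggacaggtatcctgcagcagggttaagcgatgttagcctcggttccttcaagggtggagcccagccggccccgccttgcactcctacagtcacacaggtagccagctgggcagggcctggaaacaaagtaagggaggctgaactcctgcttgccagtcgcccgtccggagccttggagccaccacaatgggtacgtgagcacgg
Slc6a4: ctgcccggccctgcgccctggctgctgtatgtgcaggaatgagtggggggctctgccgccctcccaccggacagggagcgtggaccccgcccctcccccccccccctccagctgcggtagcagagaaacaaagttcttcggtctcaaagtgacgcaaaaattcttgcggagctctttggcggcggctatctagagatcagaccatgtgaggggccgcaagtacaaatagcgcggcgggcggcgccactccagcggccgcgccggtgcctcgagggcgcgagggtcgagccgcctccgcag
Slc3a1: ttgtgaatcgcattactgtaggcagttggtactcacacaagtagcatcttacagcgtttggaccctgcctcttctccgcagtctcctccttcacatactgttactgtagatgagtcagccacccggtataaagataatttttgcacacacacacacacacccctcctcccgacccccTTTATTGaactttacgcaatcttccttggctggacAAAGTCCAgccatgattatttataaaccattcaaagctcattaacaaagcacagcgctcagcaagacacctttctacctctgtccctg
Slc1a4: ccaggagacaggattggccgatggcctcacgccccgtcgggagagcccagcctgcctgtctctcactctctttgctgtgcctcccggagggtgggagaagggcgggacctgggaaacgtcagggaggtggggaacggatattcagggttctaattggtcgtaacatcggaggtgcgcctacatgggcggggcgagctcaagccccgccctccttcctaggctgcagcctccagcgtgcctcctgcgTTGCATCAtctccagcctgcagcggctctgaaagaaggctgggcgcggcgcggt
Slc7a7: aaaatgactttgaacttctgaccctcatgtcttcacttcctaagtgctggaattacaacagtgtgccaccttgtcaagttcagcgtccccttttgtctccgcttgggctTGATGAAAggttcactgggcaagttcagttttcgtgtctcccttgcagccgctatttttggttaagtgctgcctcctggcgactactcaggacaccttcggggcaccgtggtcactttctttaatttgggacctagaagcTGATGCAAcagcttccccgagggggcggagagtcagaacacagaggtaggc
In Slc3a1 the capitals are TTTATTG, the reverse complement of the CDX2 motif CAATAAA, starting 73 bases before the start, and the HNF4 motif AAAGTCCA, starting 38 bases before it. In Slc1a4 they are TTGCATCA, a match on the opposite strand to the C/EBP-ATF response element TGATGNAA. In Slc7a7 they are TGATGAAA and TGATGCAA, matches to the same element on the gene's own strand. A total of 29 of the 39 members had a window, 42 windows in all, and 5 motifs were searched on both strands. TGATGNAA was found in 3 windows of 2 members, Slc1a4 and Slc7a7, and in 3.97% of the 32851 promoter windows of all genes. Of those 3 windows, 2 are overlapping windows of Slc7a7 that hold the same TGATGCAA, so that site is counted in both. AAAGTCCA was found in 1 window of the members and in 1.25% of all windows, and CAATAAA in 1 and in 4.60%. The HNF1 motif and the sterol regulatory element TCACNCCAC were in no member window, against 0.399% and 1.24% of all windows. A match says only that these letters are in the window.

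**Figure D1:**
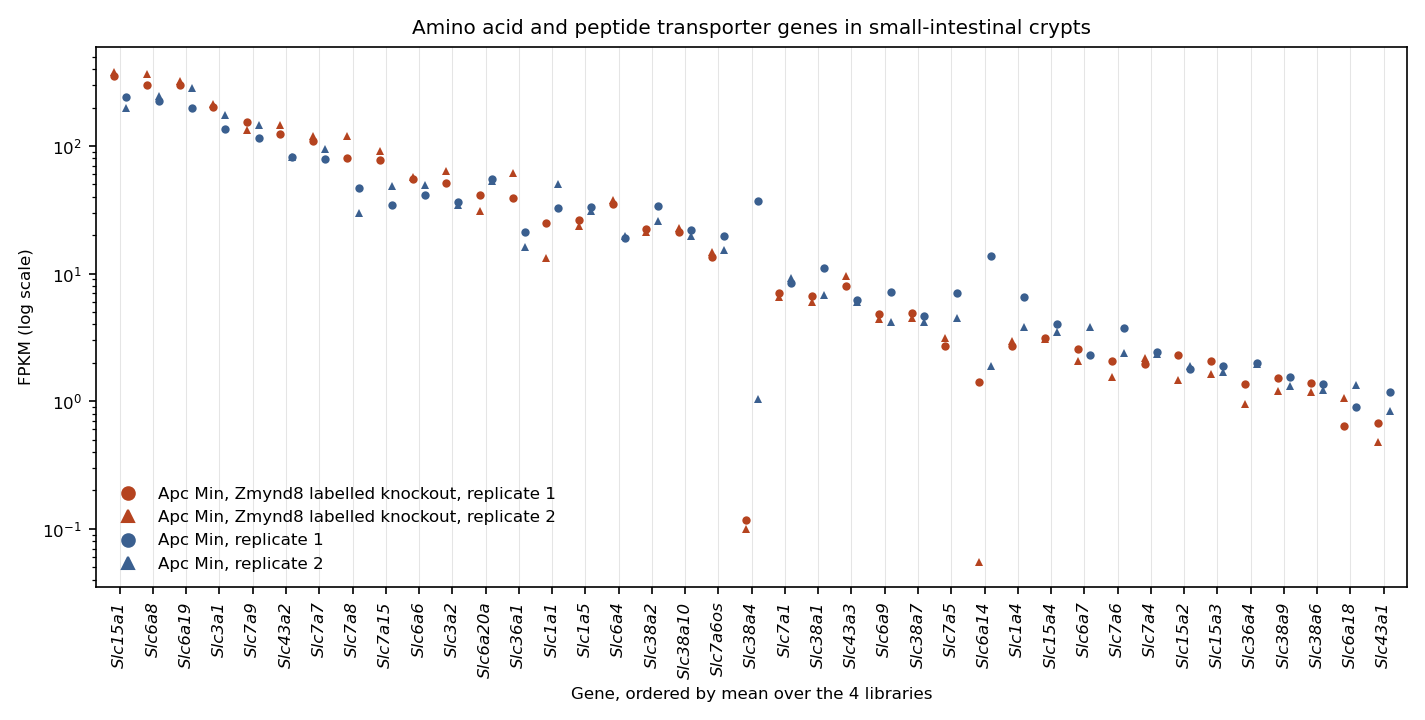
Level of each member in FPKM (log axis) in the 2 libraries labelled knockout and the 2 Apc Min libraries, 1 point per library, with members ordered by their mean. The 4 most abundant members had both libraries labelled knockout above both Apc Min libraries, while Slc38a4 was near 0 in the libraries labelled knockout and at 37.2 FPKM in 1 Apc Min library.

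Of the 39 members, 38 passed the filter on low values (at least 1 FPKM in at least 2 libraries) and were tested with limma on log2(FPKM + 1). One of them, Slc6a4, passed an adjusted p of 0.05 (Benjamini-Hochberg, over 12948 genes), which is 2.63% of the tested members against 0.726% of all genes tested, or 0.595% for genes that were higher and 0.131% for genes that were lower. At an unadjusted p under 0.05, 11 members were higher in the libraries labelled knockout (28.9%, against 7.49% of all genes tested) and 7 were lower (18.4%, against 19.1%). An adjusted p under 0.1 was reached by 6 members, all of them higher: Slc6a4, Slc43a2, Slc7a15, Slc15a1, Slc3a2 and Slc36a1. The log2 fold change was positive for 18 of the 38 members, 47.4% against 28.3% of all genes. The members' median log2 fold change was -0.03, against -0.15 over all genes, a difference of 0.13. Scaling the libraries by the median ratio moved the all-gene median by 0.15 on the log2 scale.

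For most tested members the 2 groups did not overlap. In 13 members (34.2%) both libraries labelled knockout were above both Apc Min libraries, against 14.9% of all genes tested, and in 15 (39.5%) both were below, against 48.5%. The direction went with abundance. Of the 18 members with a mean of at least 20 FPKM, 14 had a positive log2 fold change, against 37.8% of the genes at that level, and of the 20 tested members below it, 4 did, against 25.3%. The 20 FPKM level was chosen after values were seen. After median-ratio scaling the non-overlapping members were 18 higher (background 28.2%) and 12 lower (background 28%).

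A q-value under 0.05 in the authors' deposited table was given to 7 of the 39 members (17.9%), against 2.13% of all listed genes. Among them 6 were higher in the libraries labelled knockout (Slc15a1, Slc7a8, Slc6a8, Slc7a15, Slc36a1 and Slc43a2) and 1, Slc38a4, was lower, against 1.26% and 0.876% of all listed genes in the authors' deposited table. Genes of higher expression passed that threshold more often. At a mean of at least 20 FPKM it was passed by 33.3% of the 18 members and by 8.17% of 3145 genes. How these q-values were computed was not given in the sources used here. The authors' deposited table gives Slc6a4 a q of 0.881, so the 2 sources made calls on different members.

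**Figure D2:**
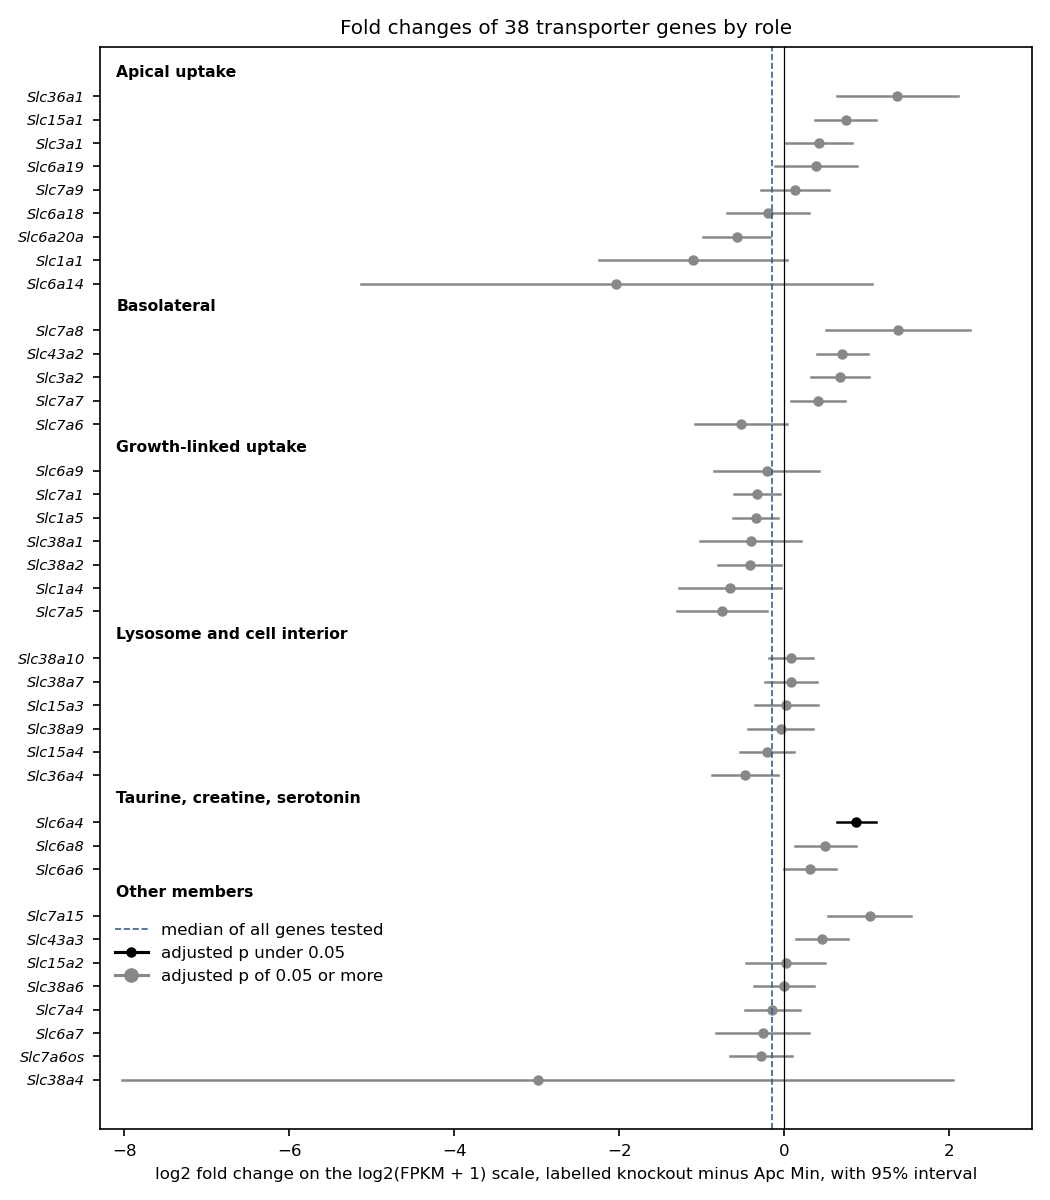
Log2 fold change (libraries labelled knockout minus Apc Min, on log2(FPKM + 1)) of the 38 tested members with 95% intervals from limma, grouped by role, each member drawn once, with the median of all genes (-0.15) as a dashed line. Only the interval of Slc6a4, at 0.87, belongs to a member with an adjusted p under 0.05.

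Among the carriers of the brush border, the peptide carrier Slc15a1 was the most abundant. This gene, on chromosome 14 from 121459621 to 121505254, encodes the proton-coupled carrier of di- and tripeptides. It had 354 and 383 FPKM in the libraries labelled knockout, against 243 and 199 FPKM in Apc Min, and the groups did not overlap. Its log2 fold change was 0.74 (SE 0.14, limma adjusted p = 0.0902), which misses the threshold, while the authors' deposited table gives a q of 5.8e-08. Slc6a19, which takes up neutral amino acids with sodium, had 299 and 322 FPKM in the libraries labelled knockout, against 199 and 282 FPKM in Apc Min. Its groups did not overlap, but the Apc Min libraries differed from each other by more than the gap between the groups (log2 fold change 0.39, SE 0.19, limma adjusted p = 0.261). It was 0.13 without Apc Min replicate 1 and 0.64 without Apc Min replicate 2.

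Slc3a1 and Slc7a9 form the heavy and light subunit of the exchanger for cystine and dibasic amino acids whose loss causes cystinuria. Slc3a1 had 202 and 212 FPKM in the libraries labelled knockout, against 136 and 176 FPKM in Apc Min (log2 fold change 0.41, limma adjusted p = 0.181, and 0.23 on the log2 scale without Apc Min replicate 1). Slc7a9 had 153 and 132 FPKM in the libraries labelled knockout, against 115 and 147 FPKM in Apc Min (log2 fold change 0.13, limma adjusted p = 0.618). Only the heavy subunit separated the groups. The ratio of Slc3a1 to Slc7a9 was 1.32 and 1.60 in the libraries labelled knockout, against 1.18 and 1.2 in Apc Min, and did not overlap. Slc3a1 shares 1731 bases with Prepl on the opposite strand, and since any use of strand is not given, reads there could belong to either gene. Prepl had 24.4 and 26.2 FPKM in the libraries labelled knockout, against 18.6 and 19.3 FPKM in Apc Min.

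Slc36a1, the proton-coupled carrier of small neutral amino acids, also found at lysosomes, had 38.9 and 61.4 FPKM in the libraries labelled knockout, against 21.0 and 16.05 FPKM in Apc Min. Its groups did not overlap, at a log2 fold change of 1.37 (SE 0.27, limma adjusted p = 0.0991), with a q of 0.00845 in the authors' deposited table. Some apical carriers were lower in the libraries labelled knockout. Slc6a20a, a carrier of proline and other imino acids, had 41.2 and 30.9 FPKM in the libraries labelled knockout, against 55.0 and 52.7 FPKM in Apc Min (log2 fold change -0.58, limma adjusted p = 0.123). Slc1a1, the glutamate and aspartate carrier, had 25.0 and 13.2 FPKM in the libraries labelled knockout, against 32.7 and 49.9 FPKM in Apc Min (log2 fold change -1.11, limma adjusted p = 0.193). Neither gene's groups overlapped. Without replicate 2 of the libraries labelled knockout the log2 fold changes were -0.38 for Slc6a20a and -0.67 for Slc1a1.

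Slc6a14, a carrier of neutral and cationic amino acids, had 1.41 and 0.0546 FPKM in the libraries labelled knockout, against 13.8 and 1.89 FPKM in Apc Min. The value of Apc Min replicate 1 stood far above the other 3, and the log2 fold change was -2.04 with an SE of 1.03 (limma adjusted p = 0.299). Without that library it was -0.86 (limma adjusted p = 0.475). Slc6a18, best known from the kidney, had means of 0.845 FPKM in the libraries labelled knockout and 1.12 FPKM in Apc Min, and its groups overlapped. Of the 10 apical members listed, 6 had a positive and 4 a negative log2 fold change, with a median of 0.22, and 0 passed the threshold by limma (3 higher and 1 lower at an unadjusted p under 0.05). Over all genes tested 28.3% were positive, with a median of -0.15, and 0.726% passed the threshold. At that unadjusted p 7.49% of them were higher and 19.1% lower.

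The basolateral carriers centre on Slc3a2, the heavy subunit that carries Slc7a5, Slc7a6, Slc7a7 or Slc7a8 to the membrane. Slc3a2 had 51.0 and 64.1 FPKM in the libraries labelled knockout, against 36.3 and 34.7 FPKM in Apc Min, without overlap (log2 fold change 0.67, SE 0.14, limma adjusted p = 0.0935). Slc7a7, the light subunit for cationic amino acid efflux that is mutated in lysinuric protein intolerance, holds the C/EBP-ATF motif in the window shown above. It had 109.99 and 119 FPKM in the libraries labelled knockout, against 78.9 and 94.1 FPKM in Apc Min (log2 fold change 0.41, limma adjusted p = 0.146). Slc7a8, the light subunit for broad neutral amino acid exchange, had 80.9 and 119.6 FPKM in the libraries labelled knockout, against 47.0 and 29.6 FPKM in Apc Min. Its log2 fold change was 1.38 (SE 0.31, limma adjusted p = 0.119), and the authors' deposited table gives it a q of 9.24e-06.

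The 2 light subunits of low level pointed the other way. Slc7a5, a leucine and large neutral amino acid exchanger typical of dividing cells, had 2.73 and 3.10 FPKM in the libraries labelled knockout, against 6.98 and 4.47 FPKM in Apc Min (log2 fold change -0.76, SE 0.21, limma adjusted p = 0.126). Slc7a6 had 2.06 and 1.55 FPKM in the libraries labelled knockout, against 3.76 and 2.38 FPKM in Apc Min (log2 fold change -0.53, limma adjusted p = 0.201). Both were lower in each library labelled knockout than in each Apc Min library. Without Apc Min replicate 1, the higher of the Apc Min libraries for both, the log2 fold changes were -0.48 for Slc7a5 and -0.28 for Slc7a6. Slc7a5 made up 1.39% and 1.27% of the summed 4 light subunits in the libraries labelled knockout, against 5.11% and 3.43% in Apc Min, and Slc7a8 made up 41.3% and 49.1%, against 34.4% and 22.7%.

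Set against the sum of those 4 light subunits, Slc3a2 stood at 0.261 and 0.263 in the libraries labelled knockout and at 0.266 and 0.266 in Apc Min. The sum itself was 195.7 and 243.6 FPKM in the libraries labelled knockout, against 136.7 and 130.5 FPKM in Apc Min. The ratio thus moved far less between libraries than either of its parts. It was noticed after the values were seen, and it is a description of 4 libraries. With Slc7a15 added to the sum the ratio was 0.187 and 0.191 in the libraries labelled knockout, against 0.212 and 0.194 in Apc Min.

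**Figure D3:**
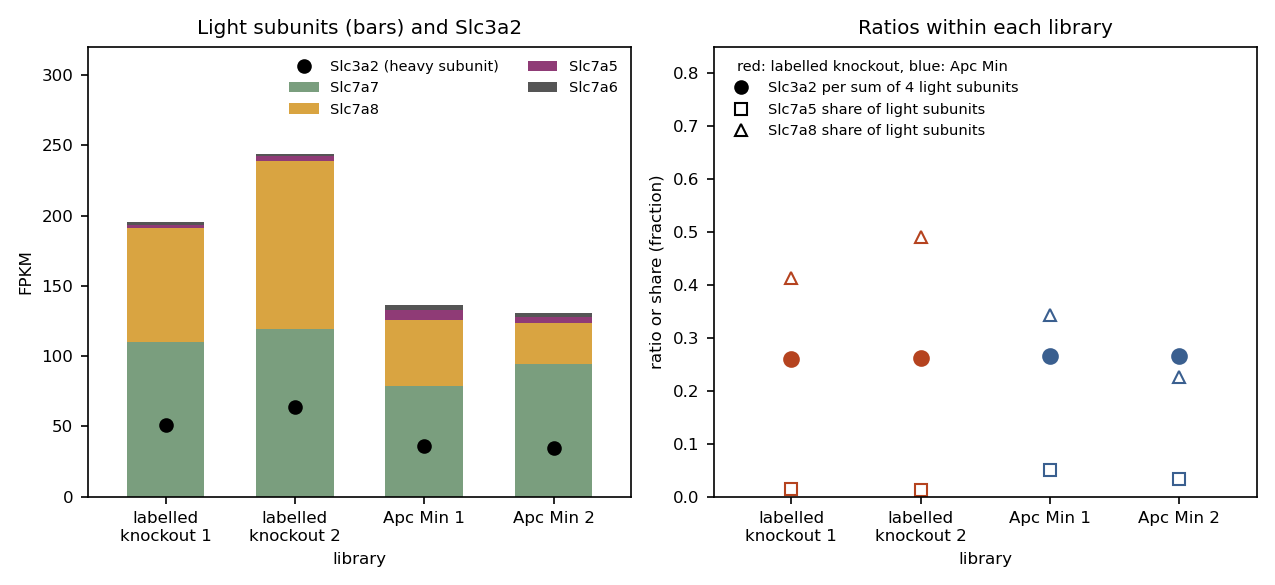
Left, FPKM of the 4 light subunits stacked per library, with the heavy subunit Slc3a2 as a point. Right, the ratio of Slc3a2 to the light subunit sum, near 0.26 in each library, and the shares of Slc7a5 and Slc7a8 in that sum as fractions, in the libraries labelled knockout and in Apc Min.

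Slc43a2, a uniporter of branched-chain and aromatic amino acids, had 124 and 146 FPKM in the libraries labelled knockout, against 81.7 and 82.6 FPKM in Apc Min. The groups were well apart, at a log2 fold change of 0.70 (SE 0.12, limma adjusted p = 0.0767), with a q of 0.0204 in the authors' deposited table. Its relative Slc43a1 had means of 0.576 FPKM in the libraries labelled knockout and 1.01 FPKM in Apc Min, and was the member that failed the filter. Slc16a10, a basolateral carrier of aromatic amino acids from another family, had 33.7 and 44.7 FPKM in the libraries labelled knockout, against 29.9 and 20.1 FPKM in Apc Min (log2 fold change 0.64, limma adjusted p = 0.193). Of the 6 tested basolateral members 4 had a positive and 2 a negative log2 fold change, with a median of 0.54, and 0 passed the threshold by limma (4 higher and 1 lower at an unadjusted p under 0.05). Again, 28.3% of all genes tested were positive, with a median of -0.15, and 0.726% passed the threshold. At that unadjusted p 7.49% of all genes tested were higher and 19.1% lower.

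The carriers tied to growth and to the amino acid response were, apart from Slc3a2, lower in the libraries labelled knockout by their log2 fold changes. Of the 8 tested, 1 had a positive and 7 a negative value, with a median of -0.38, and 0 passed the threshold by limma (1 higher and 5 lower at an unadjusted p under 0.05). Over all genes 28.3% were positive, and 19.1% were lower at that unadjusted p. Slc1a5, the glutamine carrier of dividing cells, had 26.4 and 23.4 FPKM in the libraries labelled knockout, against 33.2 and 30.7 FPKM in Apc Min (log2 fold change -0.35, SE 0.11, limma adjusted p = 0.141). Slc38a2, a sodium-coupled carrier induced when amino acids are scarce, had 22.3 and 21.3 FPKM in the libraries labelled knockout, against 33.8 and 25.9 FPKM in Apc Min (log2 fold change -0.42, limma adjusted p = 0.164). Slc7a1, the arginine and lysine carrier, had 7.07 and 6.53 FPKM in the libraries labelled knockout, against 8.45 and 9.19 FPKM in Apc Min (log2 fold change -0.33, limma adjusted p = 0.150). None of these 3 overlapped between the groups. After median-ratio scaling the log2 fold changes were -0.18 for Slc1a5, -0.25 for Slc38a2 and -0.18 for Slc7a1, and that of Slc38a2 was -0.24 without Apc Min replicate 1.

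Slc1a4, a carrier of alanine, serine and cysteine with the C/EBP-ATF motif in the window shown above, as in Slc7a7, had 2.70 and 2.98 FPKM in the libraries labelled knockout, against 6.59 and 3.84 FPKM in Apc Min (log2 fold change -0.66, SE 0.24, limma adjusted p = 0.177). Slc38a1, a glutamine carrier, had 6.66 and 6.02 FPKM in the libraries labelled knockout, against 11.1 and 6.83 FPKM in Apc Min (log2 fold change -0.41, limma adjusted p = 0.310). For both genes Apc Min replicate 1 was the highest library, and without it the log2 fold changes were -0.33 for Slc1a4 and -0.09 for Slc38a1. Slc6a9, the glycine carrier, had 4.79 and 4.39 FPKM in the libraries labelled knockout, against 7.17 and 4.16 FPKM in Apc Min, and its groups overlapped.

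A companion list of 20 genes of the ATF4 response gave 19 tested, of which 5 had a positive and 14 a negative log2 fold change, and 0 passed the threshold by limma (2 higher and 6 lower at an unadjusted p under 0.05). The positive share over all genes was 28.3%, so this split is near the background. After median-ratio scaling the split was 8 positive and 11 negative. Nupr1, a stress-induced regulator, had 21.8 and 17.0 FPKM in the libraries labelled knockout, against 40.8 and 37.2 FPKM in Apc Min (log2 fold change -0.98, limma adjusted p = 0.0677). Shmt2, a mitochondrial enzyme of serine and glycine metabolism, had 11.1 and 11.6 FPKM in the libraries labelled knockout, against 15.6 and 14.9 FPKM in Apc Min (log2 fold change -0.40, limma adjusted p = 0.104). Atf4 itself had 97.8 and 108.9 FPKM in the libraries labelled knockout, against 105.6 and 118.9 FPKM in Apc Min, and overlapped.

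The intracellular carriers, Slc36a1 among them, were mixed. Slc38a10 had 21.2 and 22.8 FPKM in the libraries labelled knockout, against 21.99 and 19.6 FPKM in Apc Min, and the lysosomal glutamine carrier Slc38a7 had 4.93 and 4.49 FPKM, against 4.68 and 4.16 FPKM. Slc38a9, which reports arginine in the lysosome to mTORC1, had 1.52 and 1.19 FPKM in the libraries labelled knockout, against 1.55 and 1.31 FPKM in Apc Min. All 3 overlapped between the groups. The lysosomal peptide and histidine carriers Slc15a3 and Slc15a4 had means of 1.84 and 3.10 FPKM in the libraries labelled knockout, against 1.79 and 3.76 FPKM in Apc Min. Slc36a4, a relative of Slc36a1, had 1.36 and 0.948 FPKM in the libraries labelled knockout, against 2.01 and 1.96 FPKM in Apc Min (log2 fold change -0.48, limma adjusted p = 0.153), so the 2 relatives had opposite signs. Of 7 tested intracellular members 4 were positive and 3 negative, or 5 and 2 after median-ratio scaling. Among 15 tested genes of amino acid sensing by mTORC1, 4 were positive and 11 negative, against 28.3% positive over all genes, which turned to 10 and 5 after that scaling, and 0 passed the threshold by limma (3 higher and 4 lower at an unadjusted p under 0.05). Those of smallest p were Sesn1, a leucine-regulated inhibitor (log2 fold change 0.49, limma adjusted p = 0.0968), and Rragd, a GTPase that recruits mTORC1 (0.70, adjusted p = 0.108).

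Slc6a4, the serotonin transporter, which clears serotonin released by enteroendocrine cells, rose in the libraries labelled knockout. It lies on chromosome 11 from 76998466 to 77032345. It had 35.3 and 37.7 FPKM in the libraries labelled knockout, against 19.1 and 19.8 FPKM in Apc Min, with the 2 libraries of each group close together. The difference was 0.87 on the log2 scale, with an SE of 0.09 and a 95% interval of 0.64 to 1.11 (limma adjusted p = 0.0439). Over 13 alternatives its adjusted p ran from 0.0348 to 0.367 and stayed under 0.05 in 5 of them. It was 0.0524 after median-ratio scaling, 0.0556 with no filter on low values, 0.063 without Apc Min replicate 1, and 0.186 and 0.367 without replicate 1 or 2 of the libraries labelled knockout. Tph1, the enzyme that makes serotonin in the gut epithelium, had 1.30 and 0.953 FPKM in the libraries labelled knockout, against 1.34 and 1.27 FPKM in Apc Min. The 8 enteroendocrine markers summed to 122 and 127 FPKM in the libraries labelled knockout, against 90.1 and 144 FPKM in Apc Min, and overlapped, while Slc6a4 did not. Of 6 markers of enteric neurons and glia only Tubb3 was among the genes analysed here, and it had 2.24 and 1.28 FPKM in the libraries labelled knockout, against 1.79 and 2.13 FPKM in Apc Min.

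The creatine carrier Slc6a8, on chromosome X from 73673133 to 73682502, had 303 and 367 FPKM in the libraries labelled knockout, against 226 and 248 FPKM in Apc Min. Its groups did not overlap, with a log2 fold change of 0.49 (SE 0.14, limma adjusted p = 0.133), while the authors' deposited table gives a q of 0.00189. The taurine carrier Slc6a6 had 54.9 and 56.9 FPKM in the libraries labelled knockout, against 41.1 and 49.3 FPKM in Apc Min (log2 fold change 0.31, limma adjusted p = 0.192), also without overlap. Slc6a6 is an apical carrier too, and its log2 fold change was 0.18 without Apc Min replicate 1. Among the 4 tested carriers of osmolytes, creatine and monoamines, 3 were positive and Slc6a9 negative, with a median of 0.40. The positive share over all genes tested was 28.3%, and their median was -0.15.

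Slc7a15, described in the mouse as a carrier of aromatic amino acids, had 77.6 and 91.8 FPKM in the libraries labelled knockout, against 34.4 and 48.2 FPKM in Apc Min. Its groups were apart, with a log2 fold change of 1.03 (SE 0.19, limma adjusted p = 0.0896) and a q of 0.00727 in the authors' deposited table. The log2 fold change of Slc7a15 was 1.27 without Apc Min replicate 2 and 0.80 without Apc Min replicate 1. It shares 56494 bases with 5033421B08Rik on the opposite strand, which had 2.58 and 3.84 FPKM in the libraries labelled knockout, against 0.949 and 0.670 FPKM in Apc Min.

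Slc38a4, a neutral amino acid carrier best known from the liver, was the most uneven member. It had 0.118 and 0.1 FPKM in the libraries labelled knockout, against 37.2 and 1.03 FPKM in Apc Min. These levels rest on 24 and 21 reads in the libraries labelled knockout, against 7280 and 220 reads in Apc Min. One Apc Min library thus carried nearly all of the signal, and the log2 fold change of -2.99 had an SE of 1.66 (limma adjusted p = 0.333). The authors' deposited table gives it a q of 0.00168. Without Apc Min replicate 1 it failed the filter on low values. Slc6a14, described above, was also highest in that library.

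The remaining members with the highest means were Slc7a6os, Slc43a3 and Slc6a7. Slc7a6os had 13.5 and 14.7 FPKM in the libraries labelled knockout, against 19.8 and 15.2 FPKM in Apc Min (log2 fold change -0.28, limma adjusted p = 0.275). Slc43a3, a purine nucleobase carrier despite its family name, had 8.03 and 9.53 FPKM in the libraries labelled knockout, against 6.24 and 6.00 FPKM in Apc Min (log2 fold change 0.45, limma adjusted p = 0.122). Slc6a7, the proline carrier of the brain, had 2.56 and 2.08 FPKM in the libraries labelled knockout, against 2.31 and 3.79 FPKM in Apc Min, and overlapped. Slc7a4, Slc15a2 and Slc38a6 had means between 1.28 and 2.39 FPKM in both groups, and of them only Slc7a4 did not overlap.

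Peptidases supply the substrates of these carriers. Of 14 tested genes on a list of 15, 10 had a positive and 4 a negative log2 fold change, and 1 passed the threshold. Over all genes tested 28.3% were positive and 0.726% passed it. Mme, a neutral endopeptidase of the brush border, rose, with 133 and 161 FPKM in the libraries labelled knockout, against 51.2 and 49.2 FPKM in Apc Min (log2 fold change 1.52, SE 0.13, limma adjusted p = 0.0417). Pepd, which splits dipeptides ending in proline, had 286 and 334 FPKM in the libraries labelled knockout, against 191 and 226 FPKM in Apc Min (log2 fold change 0.57, limma adjusted p = 0.12). Mep1a, a meprin subunit, had 266 and 163 FPKM in the libraries labelled knockout, against 267 and 426 FPKM in Apc Min, with the lowest value in replicate 2 of the libraries labelled knockout.

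The tissue is labelled as crypt cells, and markers of differentiated cells were abundant in it. The 18 enterocyte markers summed to 25610 and 30073 FPKM in the libraries labelled knockout, against 15636 and 17582 FPKM in Apc Min, 18 of 18 had a positive log2 fold change, and 3 of them passed the threshold. The 12 proliferation markers summed to 193 and 194 FPKM in the libraries labelled knockout, against 290 and 267 FPKM in Apc Min, with 0 of 12 positive, and the 7 stem cell markers to 137 and 144 FPKM, against 209 and 218 FPKM, with 0 of 7 positive. Olfm4 alone had 98.3 and 108.6 FPKM of the stem cell sum in the libraries labelled knockout, against 132.8 and 166.1 FPKM in Apc Min. Lgr5 had 2.74 and 3.19 FPKM in the libraries labelled knockout, against 14.8 and 3.48 FPKM in Apc Min. The Paneth cell markers had 0 of 6 positive and 2 that passed the threshold. Over all genes tested 28.3% were positive, while 0.595% passed the threshold as higher and 0.131% as lower. The part of these markers in the results on the carriers was not tested. In bulk RNA, fewer cells of a type and less RNA per cell cannot be told apart. Immune markers summed to 1409 and 1091 FPKM in the libraries labelled knockout, against 1123 and 1563 FPKM in Apc Min, and overlapped, with 1 of 11 positive, or 6 of 11 after median-ratio scaling. Cd74 alone had 1113 and 845 FPKM of the immune sum in the libraries labelled knockout, against 840 and 1212 FPKM in Apc Min. Stroma and vessel markers had 215 and 203 FPKM in the libraries labelled knockout, against 263 and 247 FPKM in Apc Min, with 1 of 7 positive. Goblet cell markers had 1 of 6 positive and tuft cell markers 0 of 3. Among the tuft cell markers 1, Sh2d6, passed the threshold as lower (log2 fold change -1.72, limma adjusted p = 0.0439).

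Markers of position along the small intestine also differed between libraries. The 7 proximal markers summed to 1019 and 1750 FPKM in the libraries labelled knockout, against 330 and 189 FPKM in Apc Min, and 6 of 7 had a positive log2 fold change. Fabp1 and Lct, which are also on the enterocyte list, made up 784 and 1399 FPKM of that sum in the libraries labelled knockout, against 212 and 98.9 FPKM in Apc Min. The other 5 summed to 235 and 351 FPKM in the libraries labelled knockout, against 118 and 90.5 FPKM in Apc Min, in the same order of libraries. Of these, Adh6a alone had 173 and 283 FPKM in the libraries labelled knockout, against 49.8 and 44.3 FPKM in Apc Min. Slc40a1, the 1 negative marker, had 10.8 and 4.31 FPKM in the libraries labelled knockout, against 31.8 and 17.6 FPKM in Apc Min. The 6 ileal markers summed to 3043 and 546 FPKM in the libraries labelled knockout, against 2119 and 8864 FPKM in Apc Min, with 0 of 6 positive. The groups overlapped in this sum, and 0 of the 6 were lower at an unadjusted p under 0.05 by limma. Fabp6 alone had 2250 and 134 FPKM in the libraries labelled knockout, against 1459 and 7606 FPKM in Apc Min. The proximal sum was highest in replicate 2 of the libraries labelled knockout, followed by replicate 1, Apc Min replicate 1 and Apc Min replicate 2. The 4 libraries stood in that same order in 5 members, namely Slc15a1, Slc7a8, Slc3a2, Slc36a1 and Slc43a3. In 8 members the order was the same except that the 2 Apc Min libraries were exchanged. The share of all genes in either order was not computed. The ileal sum was lowest in replicate 2 of the libraries labelled knockout and highest in Apc Min replicate 2. Slc1a1 had its lowest and highest values in those same libraries, while Slc6a20a had its lowest there and its highest in Apc Min replicate 1. Slc6a7 was the 1 member with all 4 libraries in the order of the ileal sum. The part of these markers of position was not tested either.

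**Figure D4:**
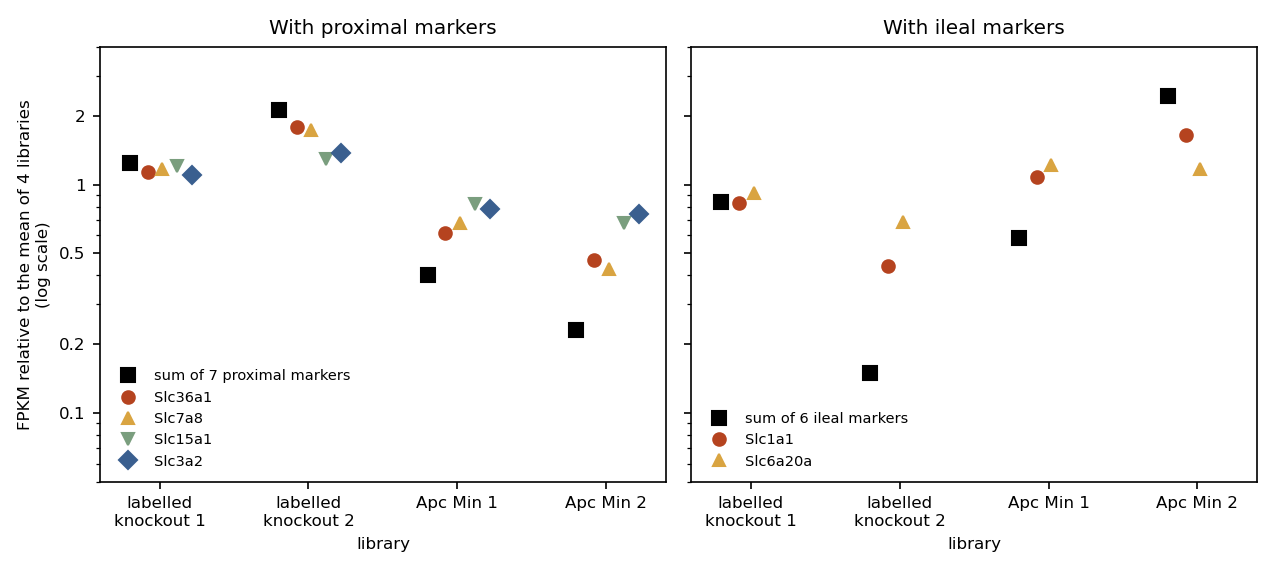
Level in each library relative to the mean of the 4 libraries (log axis, offset sideways for legibility) for the summed markers of the proximal (left) and ileal (right) small intestine, as black squares, and for carriers beside them. The proximal sum was 1019 and 1750 FPKM in the libraries labelled knockout and 330 and 189 FPKM in Apc Min. All carriers drawn on the left are among the 5 members with the same order of libraries as that sum. Their match to the sum thus follows from the choice, and members in other orders are not drawn on the left.

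The order of the 4 libraries repeated across members. In 10 members Apc Min replicate 1 was highest, followed by Apc Min replicate 2 and then replicates 1 and 2 of the libraries labelled knockout, and in 4 more the last 2 were exchanged. In 8 members replicate 2 of the libraries labelled knockout was highest, followed by replicate 1, Apc Min replicate 2 and Apc Min replicate 1. The shares of all genes in these orders were not computed. Members measured in the same 4 libraries share whatever sets those libraries apart, so these orders are a description and members are not replicates of a condition. The members without overlap were 16 higher and 17 lower without Apc Min replicate 1 (background 26% and 57.3%), and 14 higher and 17 lower without Apc Min replicate 2 (background 22.1% and 65%). They were 14 higher and 20 lower without replicate 1 of the libraries labelled knockout (background 19.7% and 61.3%), and 18 higher and 16 lower without replicate 2 (background 21.4% and 54%).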

How the data were processed

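RNA was sequenced from 4 libraries of mouse small intestinal crypts, each a pool of 3 mice, with an NEBNext Ultra RNA kit and 150 bp paired reads on a HiSeq3000, per the labels' protocols. The submitters' processing notes list HISAT2, BWA, SICER, mm10 and hg38, with neither roles nor versions. The counter, the annotation and strand use were not given in the sources used here. No source gives litter or day for the pools, so p-values reflect spread among pools only. The study's 4 HCT116 ChIP-seq libraries were not analysed here.

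The authors deposited 1 value per gene and library, read here as FPKM because the values of all 13359 distinct genes came out as whole reads (within 0.002 reads) for a single length per gene and total per library. The totals were 46551218 and 47990019 reads in the libraries labelled knockout and 44718091 and 48778712 in Apc Min. For each gene the authors also deposited p-values, q-values and a log2 ratio of the group means, and the test behind them was not given in the sources used here. Among 13527 entries, 168 exact repeats were dropped. Unused columns of per-sample values numbered 0. Coordinates are those of the deposited table, and all 39 members matched RefSeq GRCm38.p6 by gene ID.

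A gene entered the fit with 1 FPKM or more in 2 or more libraries, and 12948 did. They were fitted with limma 3.58.1 (R 4.3.3) on log2(FPKM + 1), with genotype as the term and trended, robust eBayes variances. On that scale a low gene's change is understated. Adjustment was by Benjamini-Hochberg over all genes tested, at a threshold of 0.05. The design foresaw a count test for raw counts and limma for normalized values, and FPKM called for limma. Tables and figures used Python 3.11.15, pandas 2.3.3 and matplotlib 3.10.9. The fit was tested on simulated data with log2 changes of 1 or 2 and the same spread set for every gene. There it recovered nearly all changed genes but also called some unchanged ones, mostly with few reads. That spread was set rather than taken from these libraries, so the share recovered does not carry over to them. Members, role lists, companion lists and markers were chosen with earlier results of these data known. Named are members past the threshold or with a deposited q under 0.05, members of the role lists with a mean of at least 1 FPKM, the 3 further members with the highest means, and from companion lists the genes past the threshold or the 2 of smallest p. Other named genes were chosen after their values were seen. One gene that this rule covers is not reported here.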

Additional observations from a re-analysis of the deposited data

How the results depend on the processing

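The directions of most named members held under the 13 alternatives tried (pseudocounts of 0.1 and 0.5, no filter, a filter on the mean at 5 FPKM, median-ratio scaling, quantile normalization, limma without trend and robust moderation, voom on recovered reads, each library left out, and a replicate block). The pseudocounts changed no call among the members. Counts of calls depended strongly on the setting. Over all genes, 77 were called higher and 17 lower, which became 1 and 0 with no filter, 2 and 0 under the 5 FPKM filter, 11 and 0 without trend and robust moderation, 4 lower after median-ratio scaling, 6 lower after quantile normalization and 199 higher with voom. With 1 library left out they ran from 0 to 230 higher and from 0 to 386 lower, and both counts were 0 without either of the libraries labelled knockout. Members called higher numbered 0 with no filter, under the 5 FPKM filter, after median-ratio scaling and without trend and robust moderation, and 0 to 2 with 1 library left out, where members called lower numbered 0 to 2. The members called without Apc Min replicate 2 had log2 fold changes there of 0.90 (Slc6a4), 1.27 (Slc7a15), -1.03 (Slc7a5) and -0.98 (Slc1a4). Calls over all genes were also most frequent in that setting. The members' median log2 fold change of -0.03 became 0.35 under the 5 FPKM filter, 0.073 after median-ratio scaling, 0.099 after quantile normalization and 0.12 with voom. Under the 5 FPKM filter 24 members were tested, each at the same log2 fold change as in the main fit. That median thus differed only through the members left out. The cause of the other shifts was not tested.

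Among the named members 6 changed sign under some alternative. Slc38a9 (-0.05) turned to 0.054 after median-ratio scaling, 0.084 after quantile normalization and 0.088 with voom. With 1 library left out it ran from -0.15 to 0.053. Over the same omissions Slc7a9 ran from -0.044 to 0.30, Slc6a9 from -0.55 to 0.11, Slc38a10 from -7.1e-05 to 0.16, Slc6a7 from -0.53 to 0.00098 and Slc15a3 from -0.087 to 0.13.

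Deviations of same-numbered libraries correlated at 0.0452 over genes. Whether the replicate numbers pair the libraries was not given in the sources used here, and this correlation cannot decide it. With the replicate block 0 genes were called higher and 0 lower, 0 members were called, and the adjusted p of Slc6a4 was 0.152.

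A left-out library leaves 1 library in its group, which is then assumed to vary like the other group. With 2 libraries a group, a missed threshold does not show that a carrier was alike in both groups. Depth limits the low members most: Slc6a14 rests on 9 reads in 1 library and Slc38a4 on 21.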

Other observations

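Several members lie near another member on the genome, and whether other genes lie between them was not checked. Slc6a18 and Slc6a19 are 1721 bases apart on chromosome 13. Their means were 0.845 and 310.3 FPKM in the libraries labelled knockout and 1.12 and 240.7 FPKM in Apc Min. These nearby genes of the same family thus differed widely in level. Slc7a7 and Slc7a8 are 304512 bases apart on chromosome 14, and both had both libraries labelled knockout above both Apc Min libraries. Slc38a1, Slc38a2 and Slc38a4 are successive members on chromosome 15, with gaps of 44478 and 295098 bases. All 3 were highest in Apc Min replicate 1. Slc43a1 and Slc43a3 are 72957 bases apart on chromosome 2. Slc43a1 was not tested, and its mean reached 1 FPKM only in Apc Min (1.01 FPKM, against 0.576 FPKM in the libraries labelled knockout). Since genes are listed from a mean of about 1 FPKM in either group, no direction is read from it.

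Slc6a20a overlaps Gm17120 on the opposite strand over 419 bases. Gm17120 had 39.5 and 27.0 FPKM in the libraries labelled knockout, against 53.0 and 55.9 FPKM in Apc Min, close to the levels of Slc6a20a in each library. It also overlaps Gm47173 on the opposite strand over 2324 bases, which had 3.41 and 2.08 FPKM in the libraries labelled knockout, against 5.29 and 4.53 FPKM in Apc Min. Since any use of strand is not given, reads of the shared bases could belong to either gene. Beside Prepl for Slc3a1 and 5033421B08Rik for Slc7a15, the other overlaps on the opposite strand with a listed gene were Oxa1l for Slc7a7 (228 bases), Glt1d1 for Slc15a4 (771 bases), Tmem132a for Slc15a3 (87 bases), Gm45606 for Slc43a2 (2083 bases) and Gm36676 for Slc6a4 (4568 bases). Gm36676 had 1.57 and 1.55 FPKM in the libraries labelled knockout, against 1.12 and 1.58 FPKM in Apc Min, far below Slc6a4.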
